A study of Homo sapiens with 12 samples.

Results

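The 10 genes described here encode the MiT/TFE transcription factors (TFEB, TFE3, MITF and TFEC), the Rag GTPases RRAGA, RRAGC and RRAGD, and the folliculin complex (FLCN, FNIP1 and FNIP2). They were chosen by name as members of these families, with no measured value in the rule. Earlier results of these data were known when the choice was made. All 10 were found among the 54553 genes of the deposited tables, and all 10 were among the 18047 genes that passed the low-count filter. Their RNA was sequenced in Caco-2 cells, an established line from a human colorectal adenocarcinoma. The design crossed 2 media with bafilomycin A1 (BafA1), which blocks the proton pump of lysosomes and so keeps them from acidifying.

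The 12 libraries form 4 groups of 3, all from sub-confluent cells of the wild-type line kept 48 h in their medium. The first group received 100 nM BafA1 in depleted medium (0.1 g/L glucose, 0.2 mM glutamine and 1% serum), and the second received vehicle in that medium. The third received 100 nM BafA1 in rich medium (1 g/L glucose, 2 mM glutamine and 20% serum), and the fourth received vehicle there. Pyruvate, non-essential amino acids and antibiotics were in both media, but the rich one was built on EMEM and the depleted one on DMEM, so glucose, glutamine, serum and base medium change together. Nothing in the labels says that the 3 samples of a group were grown apart, so each p-value reflects only how these samples vary, and that variation may be technical.

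The Rag GTPases sit on the lysosome as pairs of RagA or RagB with RagC or RagD and recruit mTORC1 when amino acids are plentiful. Folliculin, bound to FNIP1 or FNIP2, makes RagC and RagD hydrolyse GTP, and in that state they present TFEB, TFE3 and MITF to mTORC1 for phosphorylation, after which 14-3-3 proteins keep the factors in the cytoplasm. Under starvation or lysosomal damage the factors enter the nucleus and switch on lysosomal and autophagy genes through E-box motifs. The genes for RagC, RagD, folliculin and its partners are known targets of the same factors, so the pathway contains a feedback loop. Activation is mainly by phosphorylation and localisation, which RNA levels do not show.

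Because several of these genes moved together, their promoters are shown with the E-box motif that MiT/TFE proteins bind. RefSeq (GRCh38.p14) gave 14 start-site windows, from 250 bases before to 50 bases after a start, for 8 of the 10 genes. RRAGA and RRAGD had no window in the source used, so their promoters were not searched. CACGTG, the E-box, was found in 2 of these 14 windows, those of RRAGC and FNIP1, and in 7.26% of all 35116 windows of that length. It lay with its centre at -109 from the RRAGC start and at -172 and -91 from the FNIP1 start. The longer TCACGTGA, a core of the CLEAR element that contains the E-box, occurred in 0.98% of all windows and was not present as these letters in any of the 14. TCATGTG, the core of the M-box, was in 1 of the 14, at an inner start of FNIP2, and in 2.92% of all windows. All motifs were searched on both strands. In the sequences below, written 5′ to 3′ along the gene's strand, capitals mark the E-box (RRAGC, FNIP1) or the M-box core read on the other strand (FNIP2), and FLCN, which also rose, is shown as a window without either.
RRAGC promoter (chr1:38859723-38860022, minus strand): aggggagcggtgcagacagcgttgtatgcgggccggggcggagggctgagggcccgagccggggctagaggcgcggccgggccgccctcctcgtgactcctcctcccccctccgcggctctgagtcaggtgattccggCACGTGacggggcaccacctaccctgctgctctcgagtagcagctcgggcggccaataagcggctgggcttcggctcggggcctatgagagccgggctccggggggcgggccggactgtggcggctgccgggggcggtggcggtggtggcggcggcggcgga
FNIP1 promoter (chr5:131796968-131797267, minus strand): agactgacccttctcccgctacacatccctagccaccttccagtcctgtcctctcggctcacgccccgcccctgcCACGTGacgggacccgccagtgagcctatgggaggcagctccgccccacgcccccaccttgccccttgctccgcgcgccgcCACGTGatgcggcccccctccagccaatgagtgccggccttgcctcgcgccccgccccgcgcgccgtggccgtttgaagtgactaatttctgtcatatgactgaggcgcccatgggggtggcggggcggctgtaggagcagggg
FLCN promoter (chr17:17237119-17237418, minus strand): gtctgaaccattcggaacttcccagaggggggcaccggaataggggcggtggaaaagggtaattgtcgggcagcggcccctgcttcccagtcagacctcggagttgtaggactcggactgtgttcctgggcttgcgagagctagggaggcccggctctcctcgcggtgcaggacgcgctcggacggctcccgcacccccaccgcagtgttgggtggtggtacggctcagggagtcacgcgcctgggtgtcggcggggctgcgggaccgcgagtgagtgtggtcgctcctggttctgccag
FNIP2 promoter (chr4:158805589-158805888, plus strand): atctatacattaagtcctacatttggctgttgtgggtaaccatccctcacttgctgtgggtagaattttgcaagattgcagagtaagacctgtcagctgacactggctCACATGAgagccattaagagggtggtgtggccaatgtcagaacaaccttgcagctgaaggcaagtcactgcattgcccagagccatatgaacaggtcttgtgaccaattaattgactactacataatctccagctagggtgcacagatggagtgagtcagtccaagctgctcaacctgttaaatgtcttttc
A match in these letters is a description of the window and not a measured binding site.

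Between 33859998 and 51649213 reads were assigned to genes in 11 libraries. Rich-medium vehicle replicate 1 held 12969814 assigned reads, and in it 17492 genes were detected. Replicate 3 of the rich-medium BafA1 group stood apart: its mean Spearman correlation across genes was 0.985 with its own group and 0.987 with the depleted-medium vehicle group. It is grouped here by its label, which these values leave in doubt, and results that rest on it are given with and without it. Without it, BafA1 in rich medium raised 3 of the 10 genes, against 4 with it, and depletion under BafA1 raised 4 either way. Over all genes, BafA1 in rich medium called 1012 without this library, against 1971 with it. Rich-medium vehicle replicates 2 and 3 also correlated more with another group, rich-medium BafA1 (both 0.975), than with their own (0.972 and 0.973), which holds the shallow library. The median gap between a gene's length and its effective length, which grows with fragment length, was 179.2 to 202.6 in depleted-medium BafA1 libraries and 210.4 to 263.3 in the other 9.

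The summed TPM of Caco-2 epithelial markers moved with the groups, with KRT8 and KRT18 (medians of 1370 and 544 TPM) weighing most. The summed TPM of 8 such genes was 1330 to 2010 in depleted-medium BafA1, 2480 to 2620 in depleted-medium vehicle, 2870 to 4180 in rich-medium BafA1 and 4690 to 7540 in rich-medium vehicle, and KRT20 was near 0 (at most 0.393 TPM). Of the 8, depletion under BafA1 lowered 6, where 13.6% of all genes were called lower, and BafA1 in depleted medium lowered 3, where 5.91% were lower. BafA1 in rich medium raised 2 and lowered 2, where 6.15% of all genes were higher and 4.78% lower. Depletion with vehicle raised 2 and lowered 3, where 15.5% were higher and 15.4% lower. In bulk RNA, fewer cells of a type and less RNA per cell cannot be told apart, and the part of these markers in the results below was not tested. The summed TPM of 6 leukocyte and macrophage genes was 7.53 to 16 in depleted-medium BafA1, 9.82 to 13.1 in depleted-medium vehicle, 12.6 to 18.9 in rich-medium BafA1 and 9.54 to 26.3 in rich-medium vehicle, with PTPRC at most 0.08 TPM. Fibroblast genes summed to at most 13.3 TPM and endothelial genes to at most 6.46 TPM in any library.

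RRAGC, FLCN and FNIP1 carry a limit of annotation: in GENCODE v29, 22.9%, 11.9% and 3.54% of their exonic bases also belong to another gene on the same strand (AL139260.2, AC055811.2 and AC008695.1), so reads there cannot be assigned with certainty. The other 7 genes had no such overlap. Of the transcript sequence of RRAGA, RRAGD, TFE3, MITF, TFEC and FNIP2, 0% of 50-base words occurred in another gene's transcripts, and for TFEB it was 0.361%.

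BafA1 in rich medium raised 4 of the 10 genes, RRAGC, RRAGD, FLCN and FNIP2, at a Benjamini-Hochberg adjusted p under 0.05 over all genes (edgeR's quasi-likelihood test). In that comparison 10.9% of the genes tested were called, with 6.15% higher and 4.78% lower, and the median log2 fold change was 0.51 for the 10 genes and 0.02 for all genes. BafA1 in depleted medium raised 4, RRAGC, RRAGD, FNIP1 and FNIP2, and lowered TFEC, beside 11.4% of all genes called (5.5% higher and 5.91% lower). The medians there were 0.37 and -0.03. A fit of only the 6 rich-medium libraries called 1 gene, RRAGD, and 2.96% of all genes tested. The depleted-medium count of 5 was the same without the shallow library and rich-medium BafA1 replicate 3, where 18.6% of all genes were called, and with offsets for effective length. That count depended on the libraries compared, with 0 called without BafA1 replicate 3 (adjusted p 0.073 to 0.092 for the 5 genes), 1 without vehicle replicate 1 or 2, and 2 without BafA1 replicate 1 or 2 or vehicle replicate 3. Calls over all genes also fell without BafA1 replicate 3, to 878 against 2058, so the drop was not particular to the 10 genes.

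Nutrient depletion in vehicle-treated cells raised 5 of the 10 genes, TFEC, RRAGC, RRAGD, FLCN and FNIP1, where 30.9% of all genes were called and 15.5% were higher. The median log2 fold change was 0.46 for the 10 genes, against 0.04 for all. Depletion under BafA1 raised 4, MITF, RRAGC, FLCN and FNIP1, where 24.1% of all genes were called and 10.5% were higher, with medians of 0.32 and 0.01. The combination of both changes, depleted-medium BafA1 against rich-medium vehicle, raised 6, MITF, RRAGC, RRAGD, FLCN, FNIP1 and FNIP2. The background in this last comparison was also the highest, with 43.2% of all genes called and 21.6% higher, and the medians were 0.9 and 0.03. Comparisons with a group in common share its libraries, so their calls are not independent of each other.

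**Figure D1:**
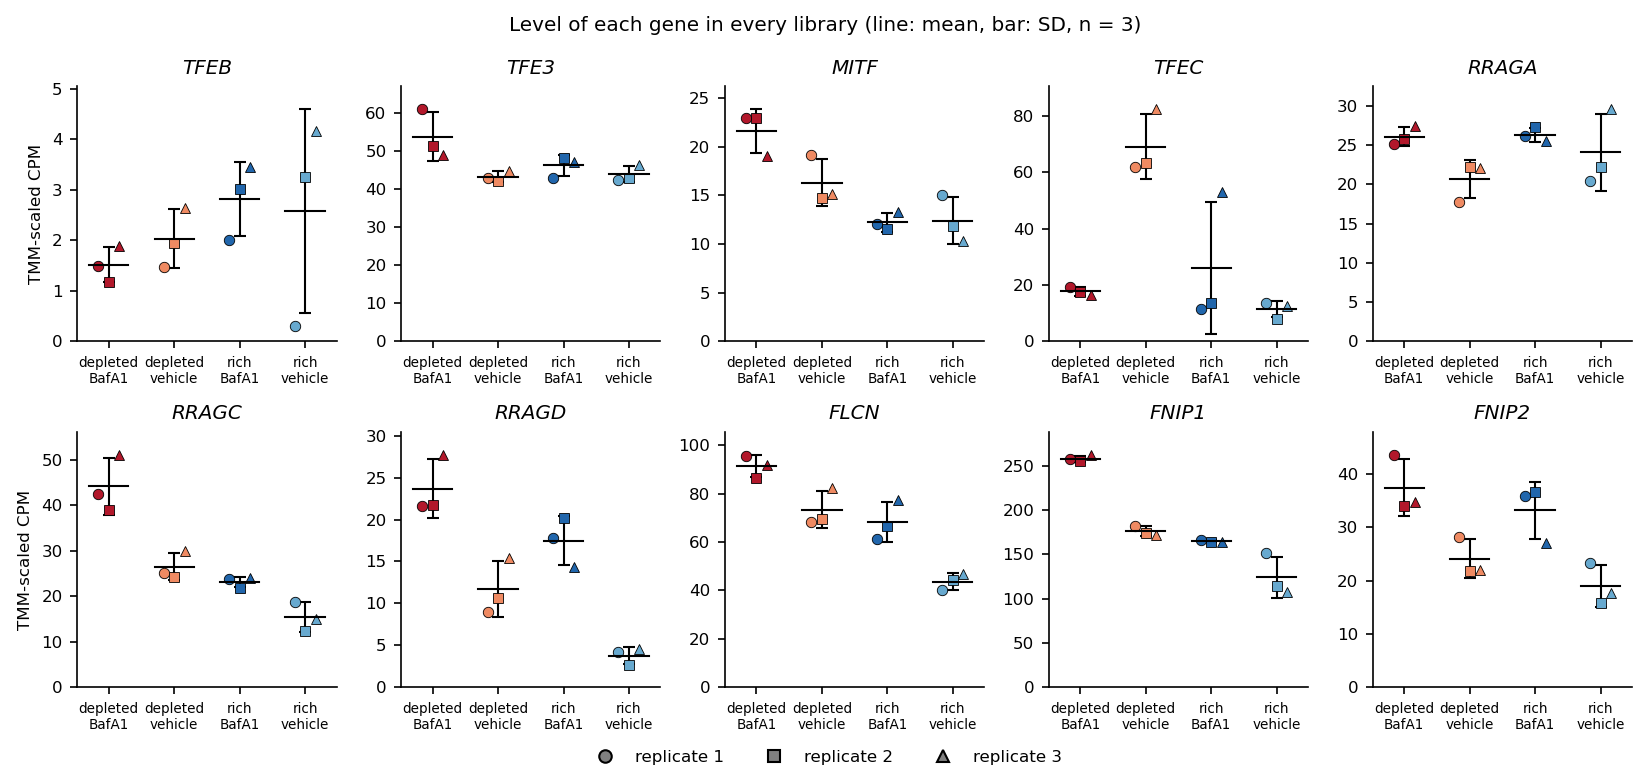
TMM-scaled CPM of each gene in every library (points, shaped by replicate), with the group mean (line) and SD (bar, n = 3). RRAGC and FNIP1 are highest in depleted-medium BafA1 and lowest in rich-medium vehicle with no overlap between any of the 4 groups, and TFEC is highest in depleted-medium vehicle, with rich-medium BafA1 replicate 3 at 53.1 CPM.

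Among the Rag GTPases RRAGD, which encodes RagD (chromosome 6, 89364616 to 89412273, GRCh38.p14), had the widest range. Its level was 21.6, 21.8 and 27.7 CPM in depleted-medium BafA1 libraries and 9.0, 10.6 and 15.4 CPM in depleted-medium vehicle libraries. It was 17.8, 20.2 and 14.4 CPM in rich-medium BafA1 libraries, against 4.17, 2.60 and 4.56 CPM in rich-medium vehicle libraries. All 3 rich-medium vehicle libraries thus lay below every other library, while the depleted-medium vehicle and rich-medium BafA1 groups overlapped. BafA1 raised RRAGD 4.66-fold in rich medium (log2 fold change 2.22, SE 0.26, adjusted p = 0.00029) and 2.03-fold in depleted medium (1.02, SE 0.24, adjusted p = 0.014). Depletion raised it 3.11-fold with vehicle (1.64, SE 0.26, adjusted p = 0.00031), and with BafA1 the difference did not pass (0.44, SE 0.24, adjusted p = 0.21). Depleted-medium BafA1 against rich-medium vehicle gave 6.32-fold (2.66, SE 0.26, adjusted p = 2.6e-06). The rich-medium BafA1 call held in every fit that left out 1 library, whereas the depleted-medium call ended without BafA1 replicate 3 or vehicle replicate 1 or 2 (adjusted p 0.066 to 0.079).

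RRAGC, the RagC gene (chromosome 1, 38838198 to 38859772), was measured at 42.4, 38.9 and 51.0 CPM in depleted-medium BafA1 libraries and at 25.1, 24.3 and 30.0 CPM in depleted-medium vehicle libraries. Rich-medium libraries held 23.7, 21.8 and 23.9 CPM with BafA1, against 18.8, 12.4 and 14.9 CPM with vehicle. The 4 groups did not overlap, in that order from high to low. It was the gene of the 10 called in all 4 single-factor comparisons, with BafA1 at 1.66-fold in depleted medium (log2 fold change 0.74, SE 0.18, adjusted p = 0.014) and 1.52-fold in rich medium (0.60, SE 0.18, adjusted p = 0.042). Depletion gave 1.91-fold under BafA1 (0.93, SE 0.18, adjusted p = 0.0016) and 1.73-fold with vehicle (0.79, SE 0.18, adjusted p = 0.0037). Combined, the difference was 2.89-fold (1.53, SE 0.18, adjusted p = 1.1e-05). The rich-medium BafA1 call ended in 10 of the 12 fits that left out a library (adjusted p up to 0.11) and with DESeq2 size factors (adjusted p = 0.054), while its log2 fold change stayed between 0.47 and 0.76.

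RRAGA (chromosome 9, 19049427 to 19051025), which encodes RagA and has the same 1599-base transcript length in all 12 libraries, was called in no comparison. Its level was 25.1, 25.8 and 27.5 CPM in depleted-medium BafA1 libraries and 17.8, 22.2 and 22.1 CPM in depleted-medium vehicle libraries. In rich medium it was 26.2, 27.3 and 25.6 CPM with BafA1, against 20.4, 22.2 and 29.6 CPM with vehicle. The depleted-medium groups did not overlap, but the difference did not pass (log2 fold change 0.34, SE 0.17, adjusted p = 0.22), and all 6 rich-medium libraries lay within 20.4 to 29.6 CPM.

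The balance of the RagC and RagD transcripts, as a ratio of the authors' TPM within a library, averaged 3.49 ± 0.171 in depleted-medium BafA1, 4.4 ± 0.806 in depleted-medium vehicle and 2.54 ± 0.541 in rich-medium BafA1, against 7.94 ± 1.58 in rich-medium vehicle (SD, n = 3). The lowest rich-medium vehicle ratio, 6.13, was above the highest of the other 9 libraries, 5.24. TPM is corrected for length, so RRAGC transcripts outnumbered RRAGD transcripts in every library, and least so in rich-medium BafA1. These ratios are a description and were not tested.

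**Figure D2:**
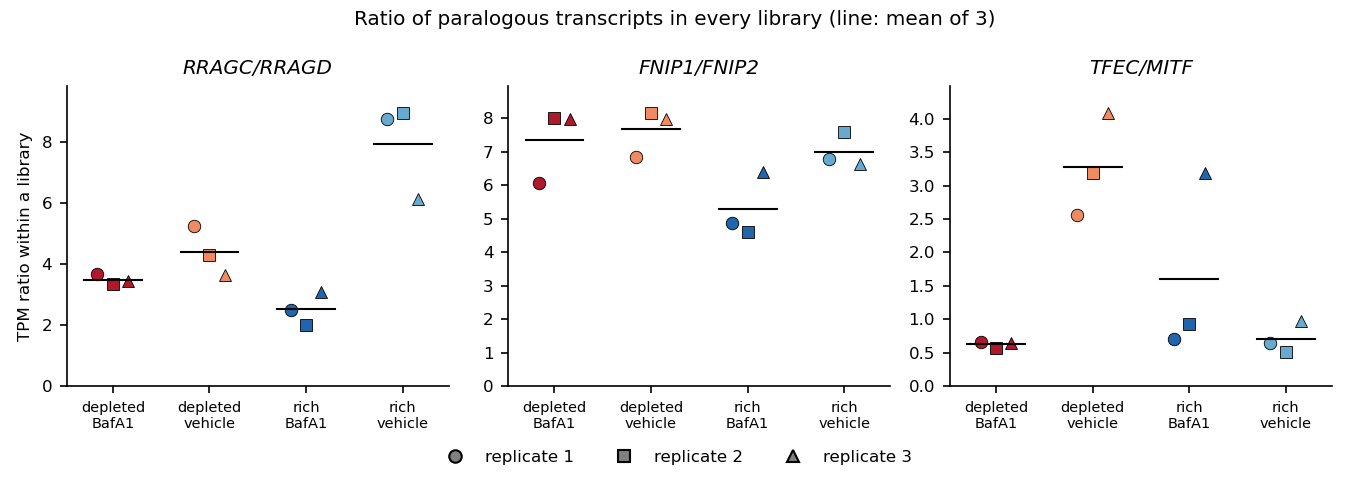
Ratio of the TPM of paralogous genes in every library (points, shaped by replicate) with the mean of 3 (line), for RRAGC over RRAGD, FNIP1 over FNIP2 and TFEC over MITF. The RRAGC over RRAGD ratio is 6.13 to 8.94 in rich-medium vehicle and at most 5.24 elsewhere.

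In the folliculin complex FLCN (chromosome 17, 17212212 to 17237330), the GTPase-activating subunit, stood at 95.7, 86.7 and 91.9 CPM in depleted-medium BafA1 libraries and at 68.4, 69.6 and 82.2 CPM in depleted-medium vehicle libraries. With BafA1 in rich medium it stood at 61.1, 66.7 and 77.5 CPM, against 40.0, 44.2 and 46.9 CPM with vehicle. Rich-medium vehicle libraries were all below the rest and depleted-medium BafA1 libraries all above, with the other 2 groups overlapping in between. FLCN rose 1.56-fold with BafA1 in rich medium (log2 fold change 0.65, SE 0.14, adjusted p = 0.0097) and 1.68-fold with depletion in vehicle (0.75, SE 0.14, adjusted p = 0.0011). It also rose 1.34-fold with depletion under BafA1 (0.42, SE 0.14, adjusted p = 0.04), a call that ended in 7 of 12 fits without 1 library (adjusted p up to 0.18). BafA1 in depleted medium gave 0.32 (SE 0.14, adjusted p = 0.16), which did not pass although the groups did not overlap. Without the shallow library and rich-medium BafA1 replicate 3 together, the rich-medium BafA1 response was 0.49 (adjusted p = 0.065).

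FNIP1 (chromosome 5, 131641714 to 131797017) encodes a folliculin-binding partner that places the complex on Rag GTPases. It had 258, 255 and 262 CPM in depleted-medium BafA1 libraries and 182, 174 and 172 CPM in depleted-medium vehicle libraries. Rich-medium libraries had 166, 164 and 164 CPM with BafA1, against 151, 114 and 107 CPM with vehicle. As with RRAGC, no groups overlapped, and the 3 depleted-medium BafA1 libraries were close to each other (SD 3.45 CPM). BafA1 raised FNIP1 1.47-fold in depleted medium (log2 fold change 0.55, SE 0.15, adjusted p = 0.025), a call lost when each of the 6 libraries compared was left out in turn (adjusted p 0.062 to 0.084). In rich medium the difference did not pass (0.41, SE 0.15, adjusted p = 0.087), but passed without the shallow vehicle library (0.57, adjusted p = 0.018) and with effective-length offsets (0.44, adjusted p = 0.039). Depletion raised it 1.57-fold under BafA1 (0.65, SE 0.15, adjusted p = 0.0053) and 1.42-fold with vehicle (0.51, SE 0.15, adjusted p = 0.017), and the call with vehicle ended without depleted-medium vehicle replicate 1 (adjusted p = 0.062) or rich-medium vehicle replicate 3 (adjusted p = 0.051).

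FNIP2 (chromosome 4, 158769026 to 158908050), the paralogue of FNIP1, passed the test with BafA1 in both media. Depleted-medium libraries held 43.6, 34.1 and 34.8 CPM with BafA1 and 28.3, 21.9 and 22.0 CPM with vehicle. Rich-medium libraries held 35.9, 36.7 and 27.0 CPM with BafA1, against 23.4, 15.9 and 17.7 CPM with vehicle. Within each medium the BafA1 libraries were all above the vehicle libraries, while the 2 media overlapped under either treatment. BafA1 raised it 1.76-fold in rich medium (log2 fold change 0.81, SE 0.19, adjusted p = 0.015) and 1.56-fold in depleted medium (0.64, SE 0.19, adjusted p = 0.042). Depletion gave 0.35 (SE 0.19, adjusted p = 0.18) with vehicle, or 0.52 without the 2 libraries that stood apart (adjusted p = 0.034), and 0.18 (SE 0.19, adjusted p = 0.55) with BafA1. The depleted-medium BafA1 call ended in 8 of 12 fits without 1 library (adjusted p up to 0.16), and the rich-medium call ended without BafA1 replicate 1 or 2 (adjusted p = 0.057 and 0.058). FNIP1 transcripts outnumbered those of FNIP2 by TPM in every library, on average 7.34 ± 1.11 to 1 in depleted-medium BafA1, 7.66 ± 0.704 in depleted-medium vehicle and 5.3 ± 0.969 in rich-medium BafA1, against 6.99 ± 0.502 in rich-medium vehicle (SD, n = 3).

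TFE3 (chromosome X, 49028726 to 49043357), a MiT/TFE factor found in most tissues, was called in no comparison. It stood at 61.0, 51.3 and 49.0 CPM in depleted-medium BafA1 libraries and at 43.0, 42.2 and 44.8 CPM in depleted-medium vehicle libraries. With BafA1 in rich medium it stood at 43.0, 48.3 and 47.2 CPM, against 42.5, 42.8 and 46.4 CPM with vehicle. The 3 depleted-medium BafA1 libraries were the highest of the 12, and the other 9 lay within 42.2 to 48.3 CPM. Against depleted-medium vehicle the difference was 1.24-fold (log2 fold change 0.31, SE 0.13, adjusted p = 0.15), and against rich-medium vehicle it was 1.23-fold (0.29, SE 0.13, adjusted p = 0.091).

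MITF (chromosome 3, 69739464 to 69968332), known as the lineage factor of melanocytes, rose with depletion under BafA1. Its level was 22.9, 22.9 and 19.0 CPM in depleted-medium BafA1 libraries and 19.1, 14.7 and 15.1 CPM in depleted-medium vehicle libraries. Rich-medium libraries held 12, 11.5 and 13.3 CPM with BafA1, against 15, 11.8 and 10.3 CPM with vehicle. Depleted-medium BafA1 libraries were all above both rich-medium groups and overlapped with depleted-medium vehicle. The log2 fold change was 0.82 (SE 0.18, adjusted p = 0.005) against rich-medium BafA1 and 0.82 (SE 0.19, adjusted p = 0.0025) against rich-medium vehicle. Depletion with vehicle gave 0.41 (SE 0.19, adjusted p = 0.11), which passed without the shallow library (0.56, adjusted p = 0.028), and BafA1 gave 0.41 in depleted medium (SE 0.18, adjusted p = 0.17). Of 7 melanocyte genes that MITF drives, TYR was at 0 TPM in all 12 libraries and MLANA in 10, while PMEL was at 1.42 to 9.13 TPM.

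TFEC (chromosome 7, 115935152 to 116159896), the least studied factor of the family and best known from macrophages, was the gene of the 10 that fell in a comparison. Depleted-medium libraries held 19.3, 17.4 and 16.4 CPM with BafA1 and 61.9, 63.2 and 82.5 CPM with vehicle. Rich-medium libraries held 11.4, 13.5 and 53.1 CPM with BafA1, against 13.5, 7.98 and 12.6 CPM with vehicle. Depleted-medium vehicle libraries were the highest 3 of the 12, and rich-medium BafA1 replicate 3 came next, far above the other 2 of its group. Depletion with vehicle raised TFEC 6.13-fold (log2 fold change 2.62, SE 0.49, adjusted p = 0.0017), and BafA1 in depleted medium lowered it by 3.9-fold (-1.96, SE 0.47, adjusted p = 0.018). The first call held in every fit that left out 1 library, and the second ended when any of the 3 depleted-medium BafA1 libraries or vehicle replicate 3 was left out (adjusted p 0.053 to 0.092) while its log2 fold change stayed between -2.04 and -1.80.

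In rich medium the TFEC difference with BafA1 was 1.2 (SE 0.47, adjusted p = 0.12), with 0.15 without replicate 3 and 1.56 without replicate 1 (adjusted p = 0.035). Over all libraries, replicate 3 included, it passed with no low-count filter at the same size (1.2, adjusted p = 4.4e-07). Depletion under BafA1 gave -0.55 (SE 0.46, adjusted p = 0.43), and 0.51 without rich-medium BafA1 replicate 3 (adjusted p = 0.12), so its sign rests on 1 library. The fit with no low-count filter called it lower (-0.57, adjusted p = 0.034), with that library included. Depleted-medium BafA1 against rich-medium vehicle gave 0.65 (SE 0.47, adjusted p = 0.28), which passed without the same library (0.66, adjusted p = 0.018). The interaction, which takes the BafA1 response in rich medium from the one in depleted medium, was -3.17 (SE 0.66, adjusted p = 0.018), and -2.11 without rich-medium BafA1 replicate 3. TFEC was the 1 gene of the 10 called for the interaction, where 6.18% of all genes were called, 2.35% higher and 3.83% lower. The call ended without depleted-medium BafA1 replicate 2 or 3 (adjusted p = 0.059 and 0.064) or depleted-medium vehicle replicate 3 (adjusted p = 0.053).

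TFEB (chromosome 6, 41683978 to 41736223), the factor most studied in starvation and lysosomal stress, was the scarcest of the 10. It had 1.49, 1.18 and 1.88 CPM in depleted-medium BafA1 libraries and 1.48, 1.95 and 2.65 CPM in depleted-medium vehicle libraries. In rich medium it had 2.01, 3.01 and 3.45 CPM with BafA1, against 0.298, 3.26 and 4.16 CPM with vehicle. The value of 0.298 CPM is 4 reads in the shallow library, and the other 11 libraries held 50 to 159 reads. TFEB was called in no comparison of all 12 libraries. Without the shallow library it was lower in depleted-medium BafA1 than in rich-medium vehicle (log2 fold change -1.30, adjusted p = 0.0073) and than in rich-medium BafA1 (-0.90, adjusted p = 0.042). With it, these differences were -0.82 (SE 0.55, adjusted p = 0.25) and -0.90 (SE 0.55, adjusted p = 0.26). Without rich-medium vehicle replicate 3 the first of these was -0.34 (adjusted p = 0.68).

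**Figure D3:**
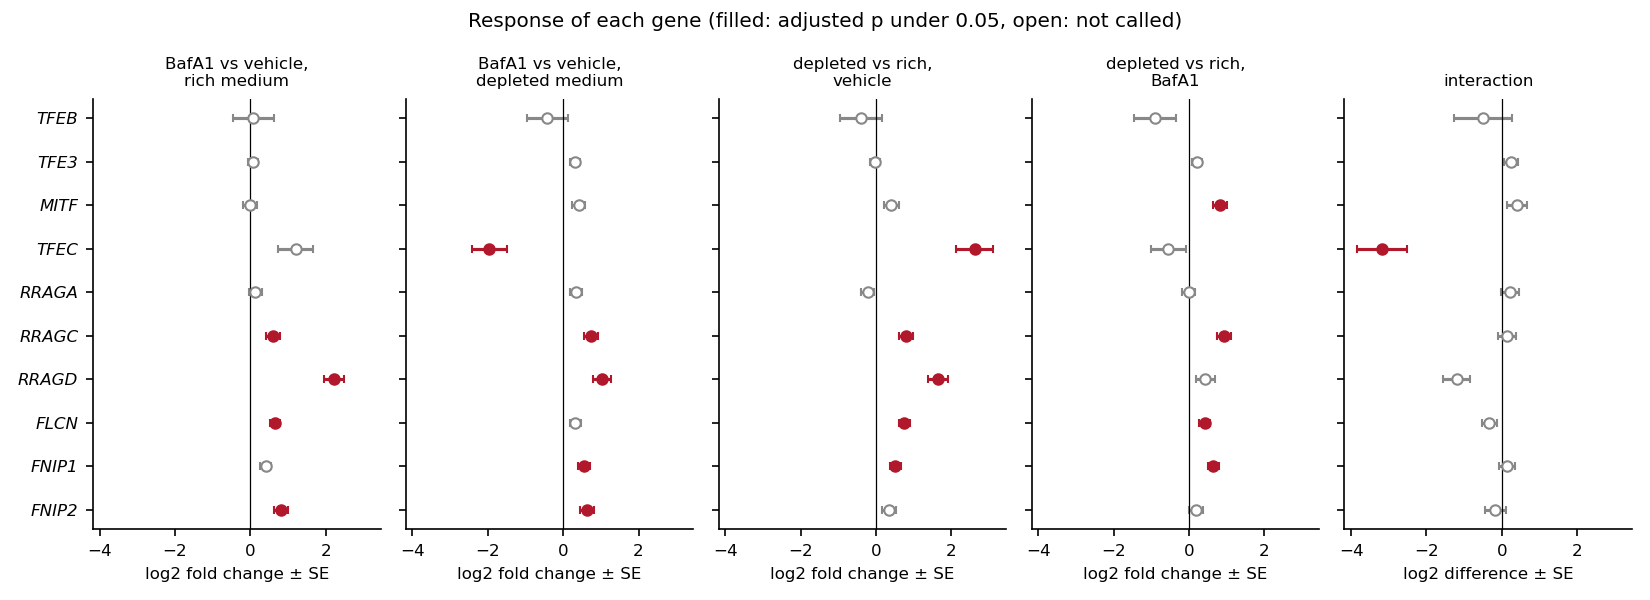
Log2 fold change ± SE of each gene in the 4 single-factor comparisons and the interaction (BafA1 response in depleted minus rich medium). Filled points have an adjusted p under 0.05, open points do not. RRAGC is filled in all 4 comparisons and TFEC, at -3.17, is the filled point of the interaction.

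The interaction of the other 9 genes did not pass. RRAGD came closest at -1.2 (SE 0.35, adjusted p = 0.055), and passed at -1.17 in DESeq2's test (adjusted p = 0.022), at -1.21 with no low-count filter (adjusted p = 0.0085) and at -1.40 without rich-medium vehicle replicate 3 (adjusted p = 0.032). For RRAGC, FNIP1 and FNIP2 it was 0.14 (SE 0.25), 0.14 (SE 0.21) and -0.17 (SE 0.27), and for FLCN -0.33 (SE 0.20). These SEs leave room for differences in either direction, and the missed threshold does not show that the 2 responses were alike.

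BafA1 in rich medium was also set against depletion alone, rich-medium BafA1 against depleted-medium vehicle. edgeR called 0 of the 10 genes there, beside 4.01% of all genes called (3.14% higher and 0.875% lower), and DESeq2 called 0 of the 10. At an unadjusted p under 0.05 there were 4 of the 10 (MITF, TFEC, RRAGD and FNIP2), beside 3785 of all 18047 genes. FLCN averaged 68.4 ± 8.33 CPM in rich-medium BafA1 and 73.4 ± 7.62 CPM in depleted-medium vehicle (SD, n = 3), a log2 fold change of -0.10 (SE 0.14, adjusted p = 0.73). FNIP1 averaged 165 ± 1.35 CPM in rich-medium BafA1 and 176 ± 5.44 CPM in depleted-medium vehicle (SD, n = 3), a difference of -0.10 (SE 0.15, adjusted p = 0.75). Without rich-medium BafA1 replicate 3, TFEC differed at -2.47 (adjusted p = 3.8e-05), and without the shallow library as well FNIP2 differed at 0.59 (adjusted p = 0.026).

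In order of group means, neighbouring groups differed by test only in some steps. RRAGC differed between depleted-medium BafA1 and depleted-medium vehicle and between rich-medium BafA1 and rich-medium vehicle, but not between the middle groups. For RRAGD the step from depleted-medium vehicle down to rich-medium vehicle passed, for FLCN that from rich-medium BafA1 down to rich-medium vehicle, and for FNIP1 that from depleted-medium BafA1 down to depleted-medium vehicle. Over all 12 libraries no neighbouring pair of groups passed the test for TFEB, TFE3, MITF, TFEC, RRAGA or FNIP2. The place of rich-medium BafA1 in the TFEC order rests on its replicate 3, at 53.1 CPM against 11.4 and 13.5 CPM in its other libraries. Without replicate 3, TFEC differed between rich-medium BafA1 and depleted-medium vehicle (-2.47, adjusted p = 3.8e-05).

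Levels of different genes were compared by the authors' TPM, which is per length. FNIP1 was the highest of the 10 in 11 of 12 libraries, with a median of 31.3 TPM, and RRAGA in the other. FLCN, RRAGA and TFE3 followed with medians of 22.8, 19.5 and 16.3 TPM, then RRAGC with 10.9 TPM. FNIP2, TFEC, MITF and RRAGD had medians of 5.36, 3.93, 3.87 and 3.08 TPM. TFEB, at a median of 1.08 TPM, was lowest in 10 libraries and RRAGD in the other 2.

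The make-up of the MiT/TFE transcripts changed with TFEC. TFE3 made up 65.5% to 67.8% of the summed TPM of the 4 factors in depleted-medium BafA1 libraries, 42.0% to 47.2% in depleted-medium vehicle libraries, 51.7% to 71.3% in rich-medium BafA1 libraries and 69.3% to 72.7% in rich-medium vehicle libraries. TFEC made up 36.8% to 43.6% in depleted-medium vehicle libraries, 32.7% in rich-medium BafA1 replicate 3 and 7.13% to 11.9% in the other 8 libraries. The share of TFEB was between 0.779% and 9.35% in all 12. In the same libraries TFEC transcripts outnumbered those of MITF in depleted-medium vehicle (TPM ratio 2.56 to 4.08) and rich-medium BafA1 replicate 3 (3.18), and were fewer in the other 8 (at most 0.972). These shares were not tested.

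**Figure D4:**
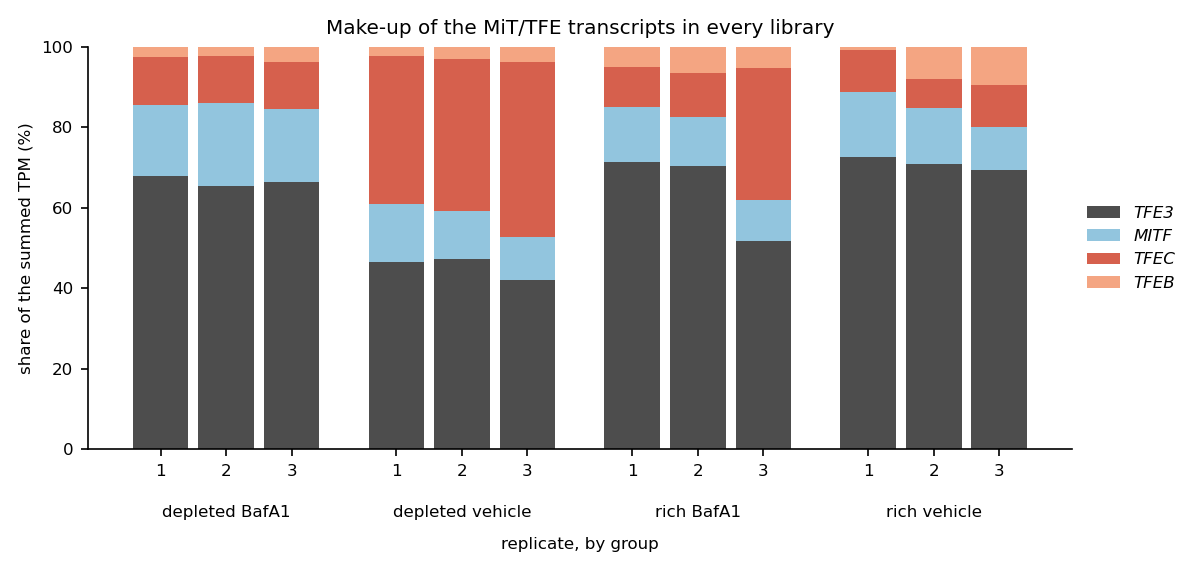
Share of each MiT/TFE factor in the summed TPM of the 4 factors, 1 bar per library, grouped by medium and treatment. TFEC takes 36.8% to 43.6% in depleted-medium vehicle and 32.7% in rich-medium BafA1 replicate 3, and at most 11.9% elsewhere.

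The genes whose pattern over the 12 libraries was most like that of a gene called in at least 2 of the 4 single-factor comparisons were found by Pearson's r of log2 CPM among 10976 other genes. The libraries fall into 4 groups, so r here describes shared differences between and within groups, not always the same order, and no p is given. For RRAGC these were GOLGA5, SEC22B and SMAD4 (r = 0.985, 0.984 and 0.982), and for FNIP1 SEC24A, ARFGEF2 and GOLGA5 (0.987, 0.984 and 0.984). GOLGA5, a golgin named for both, averaged 121 ± 9.96 CPM in depleted-medium BafA1, 59.2 ± 4.51 CPM in depleted-medium vehicle and 49.1 ± 4.5 CPM in rich-medium BafA1, against 31.3 ± 7.15 CPM in rich-medium vehicle (SD, n = 3). FLCN was most like ABR, RAB3IL1 and STX5 (0.982, 0.982 and 0.981), RRAGD like TOX3, SIRT2 and MAF1 (0.965, 0.957 and 0.955), and FNIP2 like BNIP3L, MTMR14 and KDM3A (0.943, 0.931 and 0.927). TFEC was most like C1orf115, ALAD and SPTLC3, each at 0.961. In rich-medium BafA1, which holds replicate 3, TFEC averaged 26.0 ± 23.5 CPM, SPTLC3 16.5 ± 15.2 CPM and C1orf115 43.4 ± 17.8 CPM (SD, n = 3). ALAD varied less there, at 31.1 ± 3.7 CPM. The part of replicate 3 in these r values was not tested.

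Listed with the Ragulator scaffold, which anchors Rag GTPases to the lysosome, were 7 genes. They include RRAGB and SLC38A9, a lysosomal amino acid transporter that senses arginine. The others, all LAMTOR genes, encode the scaffold itself and were called in no comparison. Depletion with vehicle raised 2 of the 7, RRAGB (log2 fold change 0.82, SE 0.19, adjusted p = 0.0037) and SLC38A9 (0.92, SE 0.21, adjusted p = 0.0041), beside 15.5% of all genes called higher. Depletion under BafA1 raised SLC38A9 (0.75, adjusted p = 0.016), a call lost in 3 of 12 fits without 1 library, beside 10.5% of all genes. RRAGB, whose product takes the place of RagA, averaged 13.4 ± 0.736 CPM in depleted-medium vehicle and 7.56 ± 0.301 CPM in rich-medium vehicle (SD, n = 3). The median of the 7 was -0.14 for depletion with vehicle, against 0.04 for all genes.

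Genes for amino acid sensors of the mTORC1 pathway rose with depletion in 4 of 7 cases with vehicle, and 1 fell. In that comparison 15.5% of all genes were called higher and 15.4% lower. SESN3 and SESN2, sestrins that sense leucine or stress, led with log2 fold changes of 2.24 (SE 0.28, adjusted p = 6.6e-05) and 1.96 (SE 0.27, adjusted p = 0.00013), and BMT2, the S-adenosylmethionine sensor also called SAMTOR, followed at 0.94 (adjusted p = 0.0042). BafA1 in rich medium, where 6.15% of all genes were higher, raised 3 of the 7, SESN3, SESN2 and BMT2, at 1.15, 1.14 and 0.87 (adjusted p = 0.015, 0.014 and 0.018). SESN2 had 25.8, 27.6 and 54.2 CPM with BafA1, against 10.5, 18.5 and 19.4 CPM with vehicle, and without BafA1 replicate 3 its log2 fold change was 0.71 and that of SESN3 0.75 (adjusted p = 0.075 for each), so the size of both rests in part on that library. BMT2 stood at 14.6, 14.7 and 14.7 CPM with BafA1, against 8.78, 5.38 and 9.9 CPM with vehicle. The BMT2 call ended in 2 of 12 fits without 1 library. It also ended without the 2 libraries that stood apart (0.94, adjusted p = 0.058) and with only the groups compared (0.85, adjusted p = 0.11). The list's median was 0.59 for BafA1 in rich medium and 0.48 for depletion with vehicle, against 0.02 and 0.04 for all genes.

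Of 12 genes of GATOR1, which inactivates RagA and RagB, of its opponent GATOR2 and of the KICSTOR scaffold, BafA1 in depleted medium raised 3, where 5.5% of all genes were called higher. NPRL2, a GATOR1 subunit, rose to 53.1 ± 11.2 CPM with BafA1, against 15.7 ± 2.45 CPM with vehicle (SD, n = 3), a log2 fold change of 1.76 (SE 0.23, adjusted p = 0.00042), WDR24 of GATOR2 rose by 0.87 (adjusted p = 0.0024) and SEC13 by 0.59 (adjusted p = 0.024), the last lost in 4 of 12 fits without 1 library. Reads of NPRL2 may include some of CYB561D2, with which 10.8% of its exonic bases overlap on the opposite strand, since the strand setting of the counting is not given in the sources used here. SEH1L, a subunit of GATOR2 and of the nuclear pore, fell with depletion in vehicle (-1.43, SE 0.21, adjusted p = 0.00016) and with BafA1 in rich medium (-0.90, SE 0.20, adjusted p = 0.011). Without the 2 libraries that stood apart, SEH1L was at -0.52 with BafA1 in rich medium (adjusted p = 0.11). The median of the 12 was 0.02 for BafA1 in depleted medium and -0.10 for depletion with vehicle, against -0.03 and 0.04 for all genes.

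In mTORC1 and its RHEB-TSC input, 8 genes, depletion with vehicle raised TSC2, the RHEB inhibitor (log2 fold change 0.70, SE 0.17, adjusted p = 0.0052), and lowered TBC1D7, a TSC complex subunit (-0.79, SE 0.18, adjusted p = 0.0036), and RHEB, the activator of mTORC1 (-0.68, SE 0.21, adjusted p = 0.024), where 15.5% of all genes were higher and 15.4% lower. RHEB was at -0.44 without rich-medium vehicle replicate 3 (adjusted p = 0.12). TBC1D7 also fell with BafA1 in depleted (-1.19, adjusted p = 0.00092) and rich medium (-0.84, adjusted p = 0.0078), where it was at -0.71 without the 2 libraries that stood apart (adjusted p = 0.062). MTOR, the kinase itself, rose with BafA1 in depleted medium (0.67, SE 0.16, adjusted p = 0.013), a call lost in 3 of 12 fits without 1 library. With BafA1, 2 of the 8 rose and 1 fell in depleted medium, where 5.5% of all genes were higher and 5.91% lower.

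Of 18 genes for kinases, phosphatases and carriers that set the location of MiT/TFE factors, depletion with vehicle lowered 11, where 15.4% of all genes were called lower (median -0.71, against 0.04 for all genes). Depletion under BafA1 lowered 10 and raised 1, where 13.6% of all genes were lower (median -0.54, against 0.01 for all genes). Genes for 14-3-3 proteins, which hold the phosphorylated factors in the cytoplasm, led. SFN averaged 10.9 ± 0.115 CPM in depleted-medium vehicle and 37.2 ± 6.84 CPM in rich-medium vehicle (SD, n = 3), a log2 fold change of -1.77 (SE 0.26, adjusted p = 0.00019), and YWHAH and YWHAQ fell by 1.46 and 1.38 on the log2 scale (adjusted p = 9.1e-05 and 0.00031). BafA1 lowered 3 of the 18 in rich medium, where 4.78% of all genes were lower, including XPO1, the exportin that carries the factors out of the nucleus (-0.85, SE 0.16, adjusted p = 0.0043). In depleted medium, where 5.91% of all genes were lower, it lowered 2, AKT1 (-0.66, adjusted p = 0.021) and PPP3CB, a catalytic calcineurin subunit (-1.27, SE 0.19, adjusted p = 0.00095), and raised PPP3CC, another one (0.66, adjusted p = 0.022). The calls of AKT1 and PPP3CC ended in 5 and 6 of 12 fits without 1 library.

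Among regulators beside folliculin, SMCR8 of the C9orf72 complex, a relative of folliculin, rose with BafA1 in depleted medium (0.70, SE 0.14, adjusted p = 0.005), 1 of 3 genes, where 5.5% of all genes were called higher. With depletion under BafA1, where 10.5% of all genes were higher, SMCR8 rose together with C9orf72 (0.67 and 1.06, adjusted p = 0.0028 and 0.0056). GABARAPL1, of the family that draws the folliculin complex to damaged lysosomes, rose with BafA1 in rich medium (0.71, SE 0.18, adjusted p = 0.023), 1 of 3 genes, where 6.15% of all genes were higher. With depletion in vehicle, where 15.5% were higher, GABARAPL1 rose together with GABARAP (0.78 and 0.49, adjusted p = 0.0052 and 0.05, the second under the threshold before rounding). The GABARAP call ended in 10 of 12 fits without 1 library (0.34 to 0.68, adjusted p up to 0.22) and with DESeq2 size factors, and GABARAPL1 with BafA1 in rich medium was at 0.51 without the 2 libraries that stood apart (adjusted p = 0.19).

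Textbook target genes of the MiT/TFE factors, other than the 10 genes, were tested in 28 of 29 cases. BafA1 raised 3 in rich medium, where 6.15% of all genes were called higher (median 0.17, against 0.02 for all genes). In depleted medium it raised 5 and lowered 1, where 5.5% of all genes were higher and 5.91% lower (median 0.16, against -0.03). Depletion raised 7 and lowered 1 with vehicle, where 15.5% of all genes were higher and 15.4% lower (median 0.25, against 0.04). Under BafA1 it raised 5 and lowered 3, where 10.5% were higher and 13.6% lower (median 0.07, against 0.01). WIPI1, which acts in autophagosome formation, averaged 69.6 ± 3.18 CPM in depleted-medium BafA1, 39.3 ± 6.06 CPM in depleted-medium vehicle and 37.0 ± 3.01 CPM in rich-medium BafA1, against 12.3 ± 3.31 CPM in rich-medium vehicle (SD, n = 3), and was called in all 4 comparisons (adjusted p = 0.00033 for BafA1 in rich medium and 0.01 in depleted medium). SQSTM1, the autophagy receptor p62, rose with BafA1 in rich medium (1.00, SE 0.19, adjusted p = 0.0053), and MAP1LC3B, the LC3B gene, in depleted medium (1.09, SE 0.20, adjusted p = 0.0028). Against these, the protease gene CTSB fell with BafA1 in depleted medium (-1.06, SE 0.21, adjusted p = 0.0044) and the hydrolase gene GLA fell with depletion in vehicle (-1.50, SE 0.28, adjusted p = 0.00097).

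**Figure D5:**
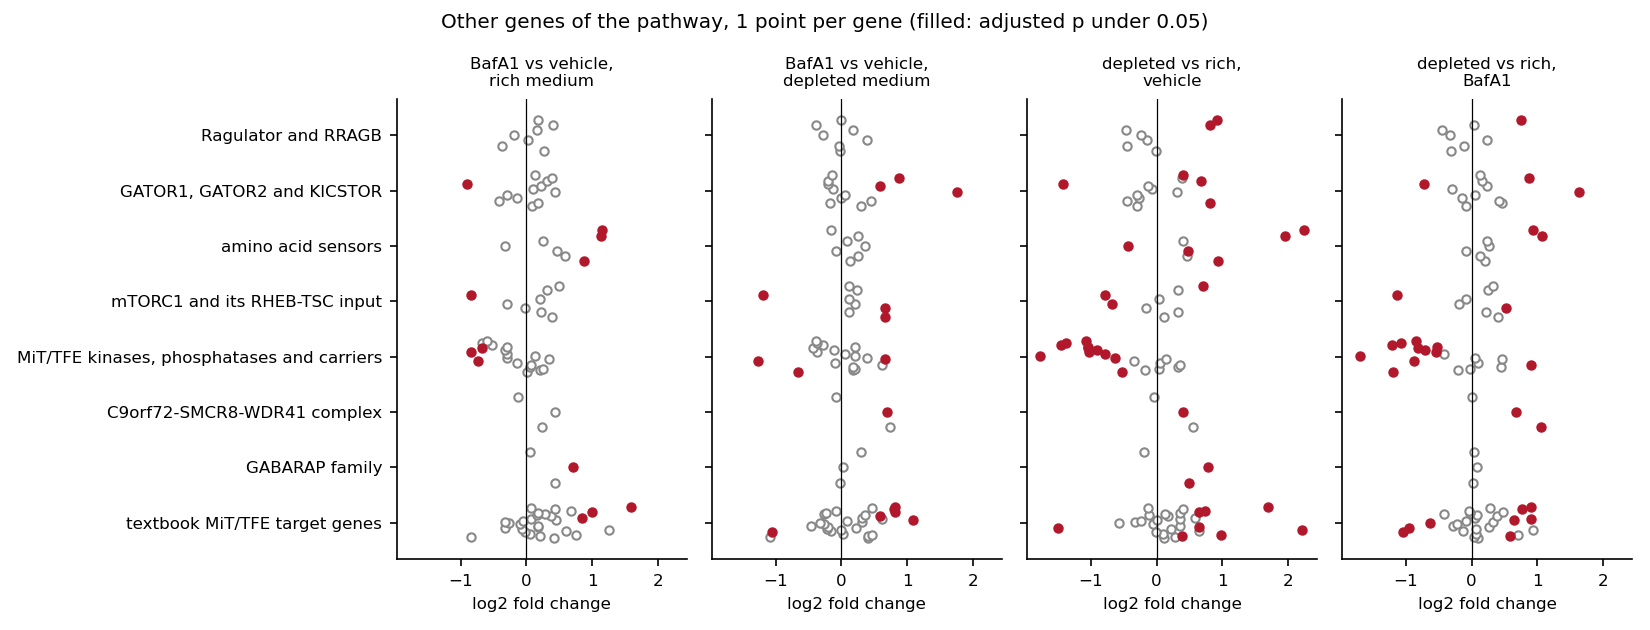
Log2 fold change of each other gene of the pathway, 1 point per gene, by list and comparison, filled where the adjusted p is under 0.05. Under depletion with vehicle, 11 of 18 kinases, phosphatases and carriers are filled to the left of 0.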

How the data were processed

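Total RNA depleted of ribosomal RNA was sequenced as stranded libraries from 12 samples in 4 groups of 3, grouped by the titles given in the labels. The deposited per-sample tables hold, per the file headers, an estimated count, a TPM value, a length and an effective length for each gene, and 5.08% of the estimated counts were not whole. The authors' series-wide table holds counts, which matched the rounded per-sample values within 0.5 and covered 13518 genes with a count of at least 10 in each library, which leaves out TFEB. DRAGEN and GRCh38 are named per the submitters' processing notes, but their versions, the gene annotation and the use of strand in counting were not given in the sources used here.

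Estimated counts were rounded and analysed with edgeR 4.0.16 in R 4.3.3: TMM scaling, filterByExpr (minimum count 10, minimum total 15), 1 robust quasi-likelihood fit over all 12 libraries with 8 residual degrees of freedom, and Benjamini-Hochberg adjustment over 18047 genes, with calls at an adjusted p under 0.05. SE is the size of the log2 fold change divided by the square root of F. TMM-scaled CPM was used to compare groups and the authors' TPM to compare genes within a library. The fit was tested on simulated data. Alternatives were DESeq2 1.42.0 (test and size factors), no low-count filter, only the groups compared, a replicate block, the series-wide table, effective-length offsets, leaving out mitochondrial, ribosomal and small-RNA genes, removal of the 2 libraries that stood apart, and leaving out each library. The 10 genes were named in every comparison. From each pathway list, up to 3 called genes with the largest change and a mean of at least 1 CPM were named. The genes and lists were chosen with earlier results of these data known.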

Additional observations from a re-analysis of the deposited data

Results flagged for a closer look

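For 3 genes among the 10 and their pathway lists, the response to BafA1 differed between the media by the interaction term (depleted minus rich, edgeR's quasi-likelihood test, adjusted over all genes). For TFEC the difference was -3.17 on the log2 scale (SE 0.66, adjusted p = 0.018), and over fits without 1 library it ran from -3.52 to -2.11 with the call lost in 3 of 12. For NPRL2, a GATOR1 subunit, it was 1.33 (SE 0.33, adjusted p = 0.028). NPRL2 stood at 42.6, 51.9 and 64.9 CPM with BafA1 and at 15.4, 13.4 and 18.3 CPM with vehicle in depleted medium, and at 16, 17.6 and 17.4 CPM with BafA1 and 9.0, 10.8 and 17.7 CPM with vehicle in rich medium. Its call was lost in 7 of 12 fits without 1 library (adjusted p up to 0.085), and 10.8% of its exonic bases overlap CYB561D2 on the other strand.

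For CTSB, the cathepsin B gene, the difference was -1.04 (SE 0.29, adjusted p = 0.044). CTSB stood at 138, 179 and 135 CPM with BafA1 and at 291, 364 and 288 CPM with vehicle in depleted medium, and at 304, 350 and 283 CPM with BafA1 and 238, 415 and 295 CPM with vehicle in rich medium. The call was lost in 11 of 12 fits without 1 library (adjusted p up to 0.12).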

How the results depend on the processing

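Counts of called genes among the 10 moved by over 1.5 times in these settings. For BafA1 in rich medium the count was 1, against 4, in a fit of only the groups compared. For the interaction it was 2, against 1, with DESeq2's test, no low-count filter, the replicate block, the series-wide table or effective-length offsets, and RRAGD joined TFEC (with the block, -1.23, adjusted p = 0.027). The block also added FNIP1 for BafA1 in rich medium (0.42, adjusted p = 0.042). For rich-medium BafA1 against depleted-medium vehicle it was 1 with no filter and 2 without the 2 libraries that stood apart, against 0. Without 1 library the counts ran from 2 to 5 for BafA1 in rich medium, 0 to 5 for BafA1 in depleted medium, 4 to 6 for depletion with vehicle, 3 to 5 for depletion under BafA1, 0 to 2 for the interaction, 6 to 7 for both changes together and 0 to 1 for rich-medium BafA1 against depleted-medium vehicle.

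Signs turned only for differences that missed the threshold. For BafA1 in rich medium MITF was 0.01 with the block and with the series-wide table, 0.03 with offsets and 0.09 without the libraries apart, and -0.12 to 0.15 without 1 library, and TFEB was -0.57 without the libraries apart and -0.40 to 0.56 without 1 library. For depletion with vehicle TFE3 was 0.01 with the series-wide table and -0.06 to 0.03 without 1 library, and TFEB -0.88 to 0.08. For depletion under BafA1 RRAGA was 0 with DESeq2's test and with its size factors and -0.05 to 0.01 without 1 library, and TFEC was 0.51 without the libraries apart and -0.91 to 0.51 without 1 library. For the interaction without the libraries apart TFEB was 0.15, RRAGC 0 and FNIP1 -0.03, and without 1 library RRAGC ran from -0.03 to 0.27 and FNIP1 from -0.02 to 0.23. The cause was not tested.

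Over all genes, the interaction called 1116 genes, against 2044 with DESeq2, 1791 with no filter and 1969 with the block. BafA1 called 1971 in rich medium, against 496 with only the groups compared and 1010 without the libraries apart, and 2058 in depleted medium, against 4258 and 3444 in those settings. Rich-medium BafA1 against depleted-medium vehicle called 724, against 1695 with DESeq2, 1826 with no filter, 1650 with only the groups compared, 1447 with the block and 3459 without the libraries apart. Without 1 library these counts ran from 393 to 1843 for the interaction, 1012 to 2656 and 878 to 3074 for BafA1 in rich and depleted medium, 3748 to 6078 and 2348 to 5499 for depletion with vehicle and under BafA1, and 138 to 2078 for the last comparison. The labels do not say whether replicate numbers pair the samples. Same-numbered deviations correlated between -0.081 and 0.294. The best match among the 3 libraries of another group had the same number in 26 of 36 cases. That is more often than an even spread over the 3 would give, although these cases are not independent. The main fit left replicate numbers out, so structure shared by number may remain in its spread, and its source was not tested. TFEB rests on 4 reads in the shallow rich-medium vehicle library.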

Other observations

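Replicate 3 of rich-medium BafA1, which stood apart for TFEC, also did so for other genes of the pathway lists, chosen here after their values were seen. DEPP1, a target gene of the MiT/TFE list, had 19.4, 15.8 and 53.0 CPM in the 3 rich-medium BafA1 libraries, with replicate 3 last, and 52.0, 46.2 and 72.3 CPM in depleted-medium vehicle. SESN3 had 55.0, 42.1 and 96.4 CPM in rich-medium BafA1 and 164, 117 and 131 CPM in depleted-medium vehicle. SFN had 47.1, 53.9 and 21.5 CPM in rich-medium BafA1 and 10.9, 10.8 and 11 CPM in depleted-medium vehicle. In each case replicate 3 was nearer to the depleted-medium vehicle libraries than replicates 1 and 2 were. Among the 10 genes, replicate 3 lay within the range of the depleted-medium vehicle libraries for 3, RRAGD (14.4 CPM), FNIP2 (27.0 CPM) and FLCN (77.5 CPM), and outside it for the other 7.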
